A study of Mus musculus with 13 samples.

Results

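Müller glia are the radial glial cells that span the whole thickness of the retina. Transcripts of 10 genes by which these cells keep the retinal environment stable were measured in retinae of PGC-1α knockout (KO) and wildtype (WT) mice after light exposure and in the dark. The 10 genes were Glul, Slc1a3, Aqp4, Dkk3, Apoe, Clu, Car14, Kcnj10, Abca8a and Sox9, out of 19937 genes with values. They were chosen by name, as genes known for Müller cells, and with earlier results of these data known. Each gene was read from the probe sets that carry its symbol and no other. This gave 11 probe sets, 2 for Glul and 1 for each of the other genes.

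Each of the 13 arrays, of a whole-transcript Affymetrix mouse gene design, took RNA of both retinae of 1 mouse. KO light stands for 3 C57BL/6 PGC-1α global KO mice, adapted to the dark for 16 hours and then exposed to 15000 lux for 2 hours. WT light stands for 3 wildtype C57BL/6 NRj mice treated in the same way. The methods state that the wildtype mice were purchased and the KO mice were a gift. Source of the mice and genotype thus cannot be told apart in any comparison of KO with WT. By the methods, pupils were dilated before the light, and the mice recovered overnight in darkness after it. The time from light to RNA was not stated there for the arrays. KO dark stands for 3 KO mice and WT dark for 4 wildtype mice that were adapted to the dark and received no light. The methods give an age of 6 to 13 weeks and male mice for all groups, whereas the labels give females for the dark arrays, except WT dark 4, and males for the light arrays, so sex and light cannot be told apart in any comparison of light with dark. The KO is global and lifelong, so every retinal cell type and the rest of the body lack the gene.

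Müller glia clear glutamate and potassium released by neurons, move water and carbon dioxide between the neural retina and the vitreous body, and supply neurons with glutamine and lipids. Glutamate enters the cell through the transporter encoded by Slc1a3 and is turned into glutamine by glutamine synthetase, the product of Glul. After retinal damage these cells become reactive, a state marked by the intermediate filament genes Gfap and Vim. Some of the 10 genes, such as Slc1a3, Aqp4, Apoe, Clu and Sox9, are also transcribed by astrocytes in the innermost retina.

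The arrays were of whole retina and not of isolated Müller cells. Rlbp1 and Vim, both defining genes of Müller glia, were measured in all arrays, at log2 intensities of 10.19 to 10.69 for Rlbp1 and 11.53 to 12.71 for Vim, and the 15 rod genes measured averaged between 11.71 and 12.14 per array. In such bulk samples fewer cells of a type and less RNA per cell cannot be told apart. The targeted gene was not lower in the KO arrays. Ppargc1a, which encodes PGC-1α, had log2 intensities of 10.02, 10.25 and 9.96 in KO light, against 9.96, 9.85 and 9.99 in WT light. It had 10.40, 10.19 and 10.26 in KO dark, against 10.03, 10.01 and 10.02 in WT dark 1 to 3. The light groups overlapped, and all KO dark arrays lay above WT dark 1 to 3 (0.26, SE 0.08, adjusted p = 0.298). The part of the gene that its probe set covers was not known here, so the KO label was not checked by it.

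A pair of arrays stood apart from their labels. Gfap, the filament gene of reactive glia, had log2 intensities of 9.75 and 9.88 in KO light 1 and 2 but 7.37 in KO light 3, while the array labelled WT dark 4 had 9.71 and WT dark 1 to 3 lay between 7.07 and 7.31. The 10 homeostasis genes split the same arrays. The mean absolute log2 difference over the 10 genes, in which opposite signs do not cancel, was 0.367 between WT dark 4 and the mean of WT dark 1 to 3, and 0.0952 between WT dark 4 and that of KO light 1 and 2. For KO light 3 it was 0.0646 from WT dark 1 to 3 and 0.318 from KO light 1 and 2. The Y-linked gene Uty had a log2 intensity of 9.29 in WT dark 4 and 9.11 in KO light 3, and between 9.19 and 9.53 in the other light arrays, against 4.14 to 4.42 in the other dark arrays. Xist, expressed in females, had 4.88 in WT dark 4 and 4.67 to 5.31 in the light arrays, against 11.86 to 12.02 in the other dark arrays. Both genes thus gave the sex that the labels name, and not males in all groups.

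Each comparison was therefore made in 2 ways. With the arrays as labelled, KO light 1 to 3, WT light 1 to 3, KO dark 1 to 3 and WT dark 1 to 3 entered the fit, and WT dark 4 was left out. With the exchanged arrays, WT dark 4 took the place of KO light 3. That exchange was chosen from expression values that include the 10 genes, and the p-values do not allow for that choice. A gene was called, that is, said to have risen or fallen, at an adjusted p under 0.05 from limma over all genes together with a ratio of 1.2 or more, or of 0.87 or less.

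Among the genes of glutamate handling, Glul had log2 intensities of 11.71, 12.05 and 12.33 in KO light 1 to 3, against 12.35, 12.26 and 12.07 in WT light 1 to 3. In the dark it had 12.47, 12.43 and 12.39 in KO mice, against 12.38 in each of WT dark 1 to 3 and 11.59 in WT dark 4. WT dark 4 and KO light 1 were the 2 lowest arrays of the series for glutamine synthetase, in both of its probe sets, KO light 2 and WT light 3 came next, and KO light 3 lay among the other WT light arrays.

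Slc1a3, which encodes the glutamate transporter GLAST, ran the other way. It had log2 intensities of 10.63, 10.69 and 10.33 in KO light 1 to 3, against 10.44, 10.38 and 10.49 in WT light 1 to 3. In the dark it had 10.27, 10.39 and 10.31 in KO mice, against 10.32, 10.36 and 10.42 in WT dark 1 to 3 and 10.68 in WT dark 4. KO light 1 and 2 and WT dark 4 were here the highest, and the other 10 arrays lay within 10.27 to 10.49.

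Among the genes of potassium, water and acid-base handling, Kcnj10 encodes Kir4.1, the channel through which Müller cells take up and release potassium. It had log2 intensities of 8.74, 8.66 and 8.33 in KO light 1 to 3, against 8.30, 8.41 and 8.44 in WT light 1 to 3. It had 8.52, 8.34 and 8.64 in KO dark, against 8.33, 8.40 and 8.19 in WT dark 1 to 3 and 8.71 in WT dark 4. KO dark 3 lay close to the 3 highest arrays, so the KO light and KO dark arrays were separated little.

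Aqp4, the gene of the water channel of glial endfeet, was steady in the dark, with log2 intensities of 9.997 to 10.03 in KO dark and 9.98 to 10.03 in WT dark 1 to 3. After light it had 10.09, 10.32 and 9.98 in KO mice, against 10.04, 10.05 and 9.92 in WT mice, and WT dark 4 had 10.14. Only KO light 2 stood clear of the rest. Car14, which encodes the membrane-bound carbonic anhydrase XIV, had 9.33, 9.63 and 9.68 in KO light, against 9.65, 9.68 and 9.60 in WT light. In the dark Car14 had 9.82, 9.78 and 9.69 in KO mice, against 9.69, 9.69 and 9.29 in WT dark 1 to 3 and 9.63 in WT dark 4. The lowest Car14 values thus came from 1 WT dark array and 1 KO light array.

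Among the genes of lipid transport, Clu encodes clusterin, a secreted chaperone and apolipoprotein. It had log2 intensities of 11.50, 11.58 and 10.98 in KO light 1 to 3, against 11.03, 11.03 and 11.22 in WT light 1 to 3. It had 10.96, 10.89 and 10.996 in KO dark, against 10.90, 11.03 and 10.84 in WT dark 1 to 3 and 11.54 in WT dark 4. The same 3 arrays were again the highest, and WT light 3 came next.

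Abca8a, a member of the ATP-binding cassette A family of membrane transporters, followed Glul. It had log2 intensities of 9.88, 10.29 and 10.55 in KO light 1 to 3, against 10.52, 10.34 and 10.45 in WT light 1 to 3. It had 10.50, 10.67 and 10.58 in KO dark, against 10.67, 10.55 and 10.60 in WT dark 1 to 3 and 9.81 in WT dark 4. Apoe, the lipid carrier of the neural tissue, differed little between the light groups, with 11.66, 11.95 and 11.69 in KO mice, against 11.65, 11.73 and 11.46 in WT mice. Apoe had 11.66, 11.78 and 11.72 in KO dark, against 11.48, 11.60 and 11.53 in WT dark 1 to 3, so the dark groups did not overlap unless WT dark 4, at 11.73, was counted.

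Sox9 encodes a transcription factor by which Müller cells are recognised in the adult retina. It had log2 intensities of 9.36, 9.31 and 9.06 in KO light 1 to 3, against 9.04, 8.92 and 9.06 in WT light 1 to 3. It had 9.13, 9.13 and 9.19 in KO dark, against 9.12, 9.15 and 9.01 in WT dark 1 to 3 and 9.35 in WT dark 4. The KO light arrays lay above the WT light arrays even as labelled, although KO light 3 and WT light 3 were nearly level. Dkk3, which encodes a secreted protein of the Dickkopf family, had 10.89, 11.06 and 10.78 in KO light, against 11.11, 11.002 and 11.01 in WT light. In the dark Dkk3 lay between 10.89 and 10.90 in KO mice and between 10.82 and 10.88 in WT dark 1 to 3, with 10.93 in WT dark 4, so its highest group was WT light.

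**Figure D1:**
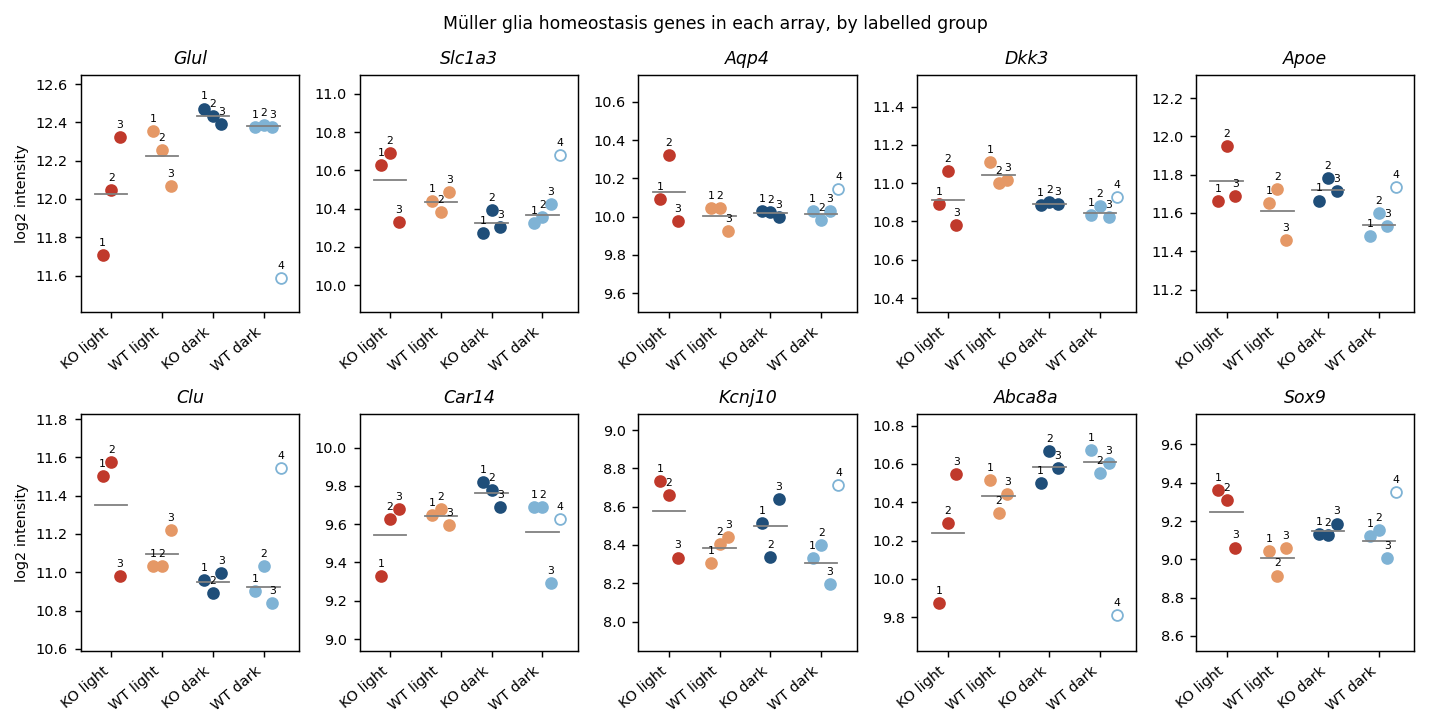
Log2 intensity (vertical axis) of each of the 10 genes in each array, by labelled group from left to right: KO light, WT light, KO dark and WT dark. Numbers are replicates, lines are the means of replicates 1 to 3, and the open circle is WT dark 4. For Glul, KO light 1 and 2 and WT dark 4 lie at 11.59 to 12.05, and for Clu at 11.50 to 11.58, apart from KO light 3.

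The sequence around a transcription start is shown for 4 of the genes, a pair that was low (Glul, Abca8a) and a pair that was high (Slc1a3, Kcnj10) in KO light 1 and 2. Each window is RefSeq sequence of GRCm38.p6, from 250 bases before to 50 bases after an annotated start, 5′ to 3′ on the gene's own strand. They lie at chr1:153899679-153899978 on the plus strand for Glul, chr11:110095888-110096187 on the minus strand for Abca8a, chr15:8710758-8711057 on the minus strand for Slc1a3 and chr1:172340960-172341259 on the plus strand for Kcnj10. Capitals mark a match to 1 of the 4 motifs described next.
Glul: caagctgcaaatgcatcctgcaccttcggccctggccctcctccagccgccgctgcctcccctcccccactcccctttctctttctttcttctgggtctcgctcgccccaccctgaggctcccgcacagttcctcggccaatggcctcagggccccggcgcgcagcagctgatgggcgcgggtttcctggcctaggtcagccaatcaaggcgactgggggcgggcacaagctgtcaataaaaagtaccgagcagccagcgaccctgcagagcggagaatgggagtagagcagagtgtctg
Abca8a: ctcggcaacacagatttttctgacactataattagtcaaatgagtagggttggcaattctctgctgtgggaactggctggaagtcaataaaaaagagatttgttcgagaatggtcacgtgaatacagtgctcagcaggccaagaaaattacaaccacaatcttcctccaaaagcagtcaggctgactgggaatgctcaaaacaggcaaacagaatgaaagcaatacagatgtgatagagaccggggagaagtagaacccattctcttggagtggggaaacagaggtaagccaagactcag
Slc1a3: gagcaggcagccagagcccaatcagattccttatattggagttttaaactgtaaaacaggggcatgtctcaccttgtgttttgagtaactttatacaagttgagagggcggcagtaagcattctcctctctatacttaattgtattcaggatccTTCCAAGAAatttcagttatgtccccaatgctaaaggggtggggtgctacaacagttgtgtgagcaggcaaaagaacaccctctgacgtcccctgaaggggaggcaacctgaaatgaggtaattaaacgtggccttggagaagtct
Kcnj10: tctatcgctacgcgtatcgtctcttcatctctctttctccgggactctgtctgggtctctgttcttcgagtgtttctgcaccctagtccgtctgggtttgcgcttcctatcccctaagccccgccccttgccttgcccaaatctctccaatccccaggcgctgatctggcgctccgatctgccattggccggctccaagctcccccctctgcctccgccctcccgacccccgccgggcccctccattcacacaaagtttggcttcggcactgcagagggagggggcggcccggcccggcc

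Windows of 6 of the 10 genes were used, 8 windows in all, and both strands were searched for motifs of factors known in reactive glia, in Müller cells or with PGC-1α. Windows on chromosome 18, where Aqp4 lies, were left out of these 8 windows, and Dkk3, Clu and Sox9 had no window. Apoe has 3 of the 8 windows, of which windows 2 and 3 overlap, so the 8 are not separate promoters. TTCNNNGAA, the motif of STAT factors, was found in 1 of the 8 windows, as TTCCAAGAA beginning at position -96 from the Slc1a3 start, and in 8.3% of all 32851 windows. ACAATG, a core motif of SOX factors, was found in 1 window of Apoe and in 12.6% of all windows. TGANTCA, the AP-1 motif, and AAGGTCA, the motif of estrogen-related receptors through which PGC-1α can act, are held by 7.81% and 4.72% of all windows, and neither was among the letters of these 8. The shares of guanine and cytosine differed within each pair, at 64.3% for Glul and 44.3% for Abca8a, and at 45.3% for Slc1a3 and 63.7% for Kcnj10.

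The comparison of KO light with WT light asks whether loss of PGC-1α alters Müller glia genes in the light-exposed retina. With the arrays as labelled, none of the 10 genes was called by limma, against 0.176% of all genes, and 1 of the 10, Sox9, had an unadjusted p under 0.05, against 12.9% of all genes. Sox9 averaged 9.25 ± 0.16 in KO light and 9.01 ± 0.08 in WT light (SD, n = 3 each), a log2 difference of 0.24 (SE 0.08, adjusted p = 0.226), and it was the only one whose groups did not overlap, against 14.1% of all genes. The spread within KO light was wide. Clu differed by 0.26 (95% interval -0.01 to 0.53), Glul by -0.20 (-0.46 to 0.06) and Abca8a by -0.20 (-0.47 to 0.08).

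With the exchanged arrays, 5 of the 10 genes were called in KO light against WT light, where 8.23% of all genes were. Clu, Sox9 and Kcnj10 rose, against 4.56% of all genes, and Glul and Abca8a fell, against 3.66% of all genes. Clu averaged 11.54 ± 0.04 in KO light and 11.09 ± 0.11 in WT light, a log2 difference of 0.45 (SE 0.06, adjusted p = 0.000728, ratio 1.36). Sox9 differed by 0.34 (SE 0.05, adjusted p = 0.00132) and Kcnj10 by 0.32 (SE 0.07, adjusted p = 0.0138). Glul averaged 11.78 ± 0.24 in KO light and 12.23 ± 0.15 in WT light, a log2 difference of -0.44 (SE 0.10, adjusted p = 0.0104, ratio 0.735), and Abca8a differed by -0.44 (SE 0.10, adjusted p = 0.0127). Slc1a3 passed the adjusted p at 0.00805 with a ratio of 1.17, under the fold needed for a call.

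The remaining genes were not called in this comparison with the exchanged arrays. Aqp4 differed by 0.18 (95% interval 0.06 to 0.31, adjusted p = 0.0603), Apoe by 0.17 (-0.0032 to 0.34), Dkk3 by -0.08 (-0.19 to 0.03) and Car14 by -0.11 (-0.33 to 0.11). Calls rested in part on single arrays. Without WT dark 4, which also leaves KO light 3 out, only Clu and Sox9 were called, against 5.24% of all genes, and Glul (-0.35, adjusted p = 0.0519), Kcnj10 (0.32, adjusted p = 0.0526) and Abca8a (-0.35, adjusted p = 0.0664) were not. Without WT light 1, Kcnj10 (0.28) and Abca8a (-0.40) were not called, and without KO light 1, Abca8a (-0.38) was not. Without moderated variances Glul, Kcnj10 and Abca8a were not called either.

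KO light against KO dark gives the response of the KO retina to light, confounded with sex. As labelled, none of the 10 genes was called, against 0.1% of all genes, although 4 of them had an unadjusted p under 0.05, against 13.9% of all genes. These were Glul (-0.41, SE 0.12, adjusted p = 0.189), Clu (0.40, SE 0.12, adjusted p = 0.204), Slc1a3 (0.23, SE 0.08, adjusted p = 0.251) and Abca8a (-0.34, SE 0.13, adjusted p = 0.261). Glul and Car14 were lower in all KO light arrays than in all KO dark arrays, against 6.67% of all genes.

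The same 4 genes were called with the exchanged arrays, against 13.3% of all genes, 7.01% that rose and 6.3% that fell. Clu rose, with a mean of 11.54 ± 0.04 in KO light and 10.95 ± 0.05 in KO dark, a log2 difference of 0.59 (SE 0.06, adjusted p = 4.39e-05, ratio 1.51). Slc1a3 rose, with 10.67 ± 0.03 in KO light and 10.32 ± 0.06 in KO dark, a difference of 0.34 (SE 0.05, adjusted p = 0.000337). Glul fell to 11.78 ± 0.24 in KO light, against 12.43 ± 0.04 in KO dark, a difference of -0.65 (SE 0.10, adjusted p = 0.00053, ratio 0.637). Abca8a fell by 0.59 on the log2 scale (SE 0.10, adjusted p = 0.00128).

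In the KO retina, thus, the transporter of glutamate and the enzyme that uses it were called in opposite directions with the exchanged arrays. All 4 calls also held without KO light 3 and WT dark 4, where 9.94% of all genes were called, with log2 differences of 0.59 for Clu, 0.33 for Slc1a3, -0.55 for Glul and -0.50 for Abca8a. Sox9 (0.19, adjusted p = 0.0182, ratio 1.14) missed the fold, and Kcnj10 (0.21), Aqp4 (0.17) and Car14 (-0.24) had adjusted p-values of 0.0643, 0.0542 and 0.12. Apoe and Dkk3 differed by 0.06 (95% interval -0.11 to 0.23) and 0.07 (-0.04 to 0.18).

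**Figure D2:**
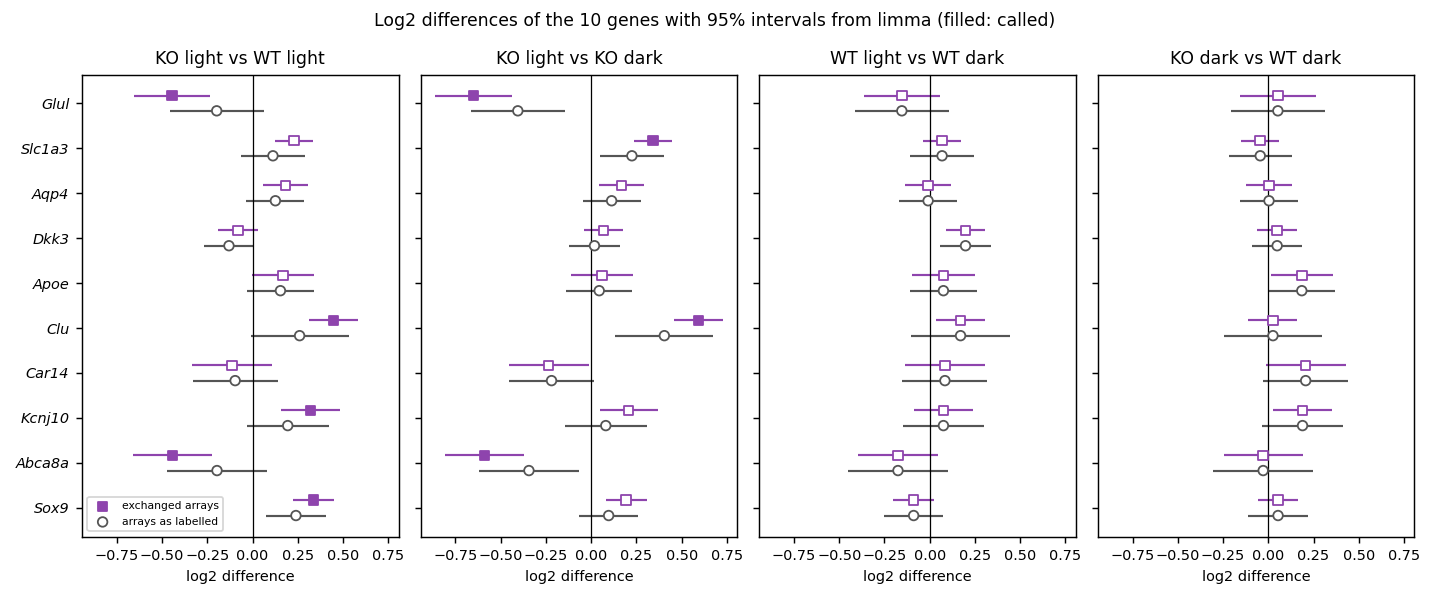
Log2 differences (horizontal axis) of the 10 genes in 4 comparisons, with 95% intervals from limma, for the exchanged arrays (squares) and the arrays as labelled (circles). Filled symbols are called genes: 5 in KO light against WT light and 4 in KO light against KO dark, all with the exchanged arrays.

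The WT retina gave no call among the 10 genes after light. In WT light against WT dark this held both as labelled, where 0.431% of all genes were called, and with the exchanged arrays, where 4.41% were. Dkk3 alone had an unadjusted p under 0.05 as labelled, against 17.1% of all genes. The groups are the same 6 arrays in both fits, and only the estimate of the spread changes. Dkk3 averaged 11.04 ± 0.06 in WT light and 10.85 ± 0.03 in WT dark, a log2 difference of 0.20 and a ratio of 1.15, with an adjusted p of 0.157 as labelled and 0.0338 with the exchanged arrays. Glul (-0.15, 95% interval -0.41 to 0.11) and Abca8a (-0.18, -0.45 to 0.10) had the sign seen in KO mice, and Clu (0.17, -0.10 to 0.44) and Slc1a3 (0.07, -0.11 to 0.24) likewise. Dkk3 was higher and Glul and Abca8a lower in all WT light arrays than in all WT dark arrays, 3 of 10 genes, against 28.2% of all genes.

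Without light, the genotypes differed little. In KO dark against WT dark none of the 10 genes was called as labelled, against 0.0752% of all genes, or with the exchanged arrays, against 0.878%. Only Apoe had an unadjusted p under 0.05 as labelled, against 7.1% of all genes. It averaged 11.72 ± 0.06 in KO dark and 11.54 ± 0.06 in WT dark (SD, n = 3 each), a log2 difference of 0.18 (SE 0.08, adjusted p = 0.695). Car14 differed by 0.21 (SE 0.11), or by 0.075 without the low WT dark 3 array, and Kcnj10 by 0.19 (SE 0.10). Apoe, Car14, Dkk3 and Glul were higher in all KO dark arrays than in all of WT dark 1 to 3, against 9.26% of all genes.

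Whether the light response differed between genotypes was tested as an interaction, called at an adjusted p under 0.05 alone. As labelled none of the 10 genes was called, against 0.0602% of all genes, and none had an unadjusted p under 0.05, against 6.86% of all genes. Clu alone was called with the exchanged arrays, against 2.78% of all genes, with a light response 0.42 larger in KO mice on the log2 scale (SE 0.09, adjusted p = 0.0256). That call was lost without WT dark 4 (adjusted p = 0.0644), and likewise without KO dark 1, KO dark 2, WT dark 2, WT light 1 or WT light 2. Leaving out 1 array gave between 0 and 4 calls among the 10 genes. Slc1a3 (0.27, adjusted p = 0.051), Sox9 (0.28, adjusted p = 0.0617) and Glul (-0.50, adjusted p = 0.0795) lay outside the threshold, and Abca8a (-0.41) had an adjusted p of 0.158.

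The order of the 4 groups differed from gene to gene. KO light was, with the exchanged arrays, the highest group for Slc1a3, Aqp4, Apoe, Clu, Kcnj10 and Sox9 and the lowest for Glul, Car14 and Abca8a, and this held as labelled too. For Dkk3 the highest group was WT light. The KO light arrays did not overlap with the group next to them for Glul, Slc1a3, Aqp4, Clu, Kcnj10, Abca8a and Sox9 with the exchanged arrays, 7 of 10 genes for which KO light was the highest or lowest group, against 15.5% of all genes. As labelled they overlapped with it for all of these genes, where 1.98% of all genes did not overlap. KO dark and WT dark overlapped wherever they were neighbours, except for Glul and Dkk3.

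The median log2 difference of the 10 genes in KO light against WT light was 0.12 as labelled, where that of all genes was -0.01, and 0.18 with the exchanged arrays, where that of all genes was -0.02. In KO light against KO dark it was 0.06 as labelled and 0.12 with the exchanged arrays, where those of all genes were 0.00 and -0.01. The mean over the 10 genes stayed between 10.31 and 10.55 in all 13 arrays.

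Across the 13 arrays some of the genes varied together and others in opposition. Glul and Abca8a varied together (r = 0.95), as did Slc1a3 and Clu (r = 0.92) and Kcnj10 and Sox9 (r = 0.83), and Glul ran against Clu (r = -0.90) and Slc1a3 (r = -0.88). These correlations rest on arrays that share their groups. Over the 10 arrays other than KO light 1, KO light 2 and WT dark 4 they were 0.57 for Glul and Abca8a, 0.43 for Slc1a3 and Clu, 0.49 for Kcnj10 and Sox9, -0.80 for Glul and Clu and -0.68 for Glul and Slc1a3. Of the 45 pairs among the 10 genes, 19 changed sign between the 13 and the 10 arrays. Sox9 had r = -0.69 and 0.46 with Glul, -0.67 and 0.62 with Abca8a and 0.66 and -0.49 with Slc1a3, and Kcnj10 had 0.59 and -0.47 with Slc1a3. Dkk3 and Apoe followed Glul little over the 13 arrays (r = -0.21 and -0.19).

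By the highest correlation over the 13 arrays, the genes most like Glul were Usp33 (r = 0.99), Impdh1 (r = 0.99) and Gramd1b (r = 0.98). Those most like Slc1a3 were Wdr1, Laptm4a and Syt11 (r = 0.98, 0.98 and 0.97), and those most like Clu were Ifitm3, Phf23 and Tubb2b (each r = 0.98). Tmem35a, Glb1l2 and Atp7b were nearest to Abca8a, Brd2, Cfl1 and Timp3 to Sox9, and Fmnl2, C1ql1 and Ppard to Kcnj10, with r between 0.94 and 0.98. Slc38a8, Ahcyl2 and Wnt5a were nearest to Aqp4 and Rgs16, Nsmce4a and Tex261 to Dkk3 (r = 0.91 to 0.95). Pnmal2, Calml4 and Gas2l3 for Apoe and Kif11, Pdgfd and Otud1 for Car14 reached r between 0.84 and 0.88. Over the 10 arrays without KO light 1, KO light 2 and WT dark 4, r was 0.55 to 0.70 for the genes nearest to Aqp4 and 0.73 to 0.96 for those nearest to the other 9 genes.

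Genes that share the tasks of the 10 were counted from lists by function. With the arrays as labelled, none of the genes of these lists was called in KO light against WT light or in KO light against KO dark, and the values that follow are those with the exchanged arrays. Of all genes, 4.56% rose and 3.66% fell in KO light against WT light in that fit, and 7.01% rose and 6.3% fell in KO light against KO dark. Of 13 other genes of glutamate and glutamine handling, 2 rose in KO light against WT light, against 4.56% of all genes, and none fell. These were Slc7a11, the cystine-glutamate exchanger (0.84, adjusted p = 0.000504), and Slc1a1, a glutamate transporter (0.45, adjusted p = 0.00165). Against KO dark, 5 rose, against 7.01% of all genes, and none fell in KO light, among them Aldh18a1 (0.62), which makes proline from glutamate, and Slc1a4 (0.48), a neutral amino acid transporter. The list was low in KO dark, with means of 9.59 to 9.60 per array in KO dark, against 9.67 to 9.69 in WT dark 1 to 3, and 12 of the 13 genes had the lower mean in KO dark. Slc1a4 fell in KO dark against WT dark (-0.45, adjusted p = 0.0146, or 0.051 as labelled), and it differed by -0.12 (SE 0.08) in KO light against WT light. Slc1a2, which encodes the related glutamate transporter GLT-1, differed by -0.04 (SE 0.04) and -0.06 (SE 0.04) in the 2 comparisons.

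Of 17 other genes of potassium, water and acid-base handling, 1 rose and 2 fell in KO light against WT light, where 4.56% of all genes rose and 3.66% fell, so the counts are near those of all genes. Slc4a3, an anion exchanger, rose (0.45, adjusted p = 0.000387), and Slc16a1, a lactate transporter (-0.46, adjusted p = 0.000383), and Dmd, the dystrophin gene whose retinal product anchors Kir4.1 and the water channel (-0.31, adjusted p = 0.0205), fell. Hepacam (-0.22) fell with Slc16a1 and Dmd in KO light against KO dark, and Slc4a3 rose. Without KO light 3 and WT dark 4, Hepacam was not called against KO dark, and Dmd was not called against WT light. In WT light against WT dark the potassium channel gene Kcnj2 rose (0.35, adjusted p = 0.0147). Kcnj16, which encodes a partner of Kir4.1, differed by -0.14 (SE 0.07) in KO light against WT light, and Aqp1 by -0.59 (SE 0.18, adjusted p = 0.0543), with KO light 2 at 9.82 and KO light 1 and WT dark 4 at 9.00 and 8.81.

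Of 11 other genes of lipid carriers, transporters and receptors, Abca1, the cholesterol exporter, rose in KO light against WT light (0.32, adjusted p = 0.00279), and Abcg1, another exporter (-0.43, adjusted p = 0.00143), and Vldlr, a lipoprotein receptor (-0.30, adjusted p = 0.00702), fell. Thus 1 rose and 2 fell, where 4.56% of all genes rose and 3.66% fell. Abcg1 (-0.24), Vldlr (-0.33) and Pltp (-0.32) fell in KO light against KO dark, against 6.3% of all genes, and Lpl (0.29), the lipoprotein lipase gene, rose, against 7.01%. The calls of Abcg1 and Pltp in this comparison were lost without KO light 3 and WT dark 4. Lrp2, which encodes the receptor megalin, fell in WT light against WT dark both as labelled (-0.62, adjusted p = 0.023) and with the exchanged arrays (adjusted p = 0.000463). Among the close relatives of Abca8a, Abca6 fell in KO light against KO dark (-0.41, adjusted p = 0.0372), a call that was lost without KO light 3 and WT dark 4, and Abca8b (0.04, SE 0.07) and Abca9 (-0.07, SE 0.07) were not called.

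Of 21 other Müller glia genes, 7 rose, against 4.56% of all genes, and 3 fell, against 3.66%, in KO light against WT light. Timp3, an inhibitor of metalloproteinases (0.83, adjusted p = 0.000156), Vim (0.61, adjusted p = 0.000488), the membrane protein gene Cd9 (0.61) and the transcription factor gene Sox2 (0.50) rose, with Notch1, Rdh10 and Nfib. Rlbp1, which encodes the retinaldehyde carrier of the visual cycle in these cells, fell by 0.31 on the log2 scale (adjusted p = 0.0145), with Hes5 and Crb1. Without KO light 3 and WT dark 4, Hes5 and Crb1 fell, but Rlbp1 was not called, nor were Notch1 and Rdh10. Rlbp1 had 10.19 in KO light 1, 10.56 in KO light 2 and 10.28 in WT dark 4. It had 10.63 to 10.69 in WT light and 10.50 to 10.57 in KO dark. In KO light against KO dark 6 rose, against 7.01% of all genes, and none fell, led by Cd9 (1.05) and Vim (0.91). In WT light against WT dark Cd9 (0.49), Vim (0.43) and Mlc1 (0.26) rose and Timp3 (-0.33) fell, where 424 of all 19937 genes rose and 456 fell.

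Genes of reactive glia, a list that shares Vim with the list above, moved in the same arrays. Their mean over 23 genes was 9.54, 9.26 and 8.20 in KO light 1 to 3, against 8.28, 8.46 and 8.75 in WT light 1 to 3. It was 8.08, 8.10 and 8.14 in KO dark, against 8.005, 8.18 and 8.14 in WT dark 1 to 3 and 9.75 in WT dark 4. With the exchanged arrays 21 of the 23 genes rose in KO light against WT light, against 4.56% of all genes. The largest rises were those of A2m (2.03), Lcn2 (1.92) and Serpina3n (1.84). In KO light against KO dark 21 rose, against 7.01% of all genes. In WT light against WT dark 7 rose, led by Gfap (1.27) and Stat3 (0.81), where 424 of all 19937 genes rose. As labelled none was called in these comparisons. The part of the reactive state in the differences of the 10 genes was not tested.

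**Figure D3:**
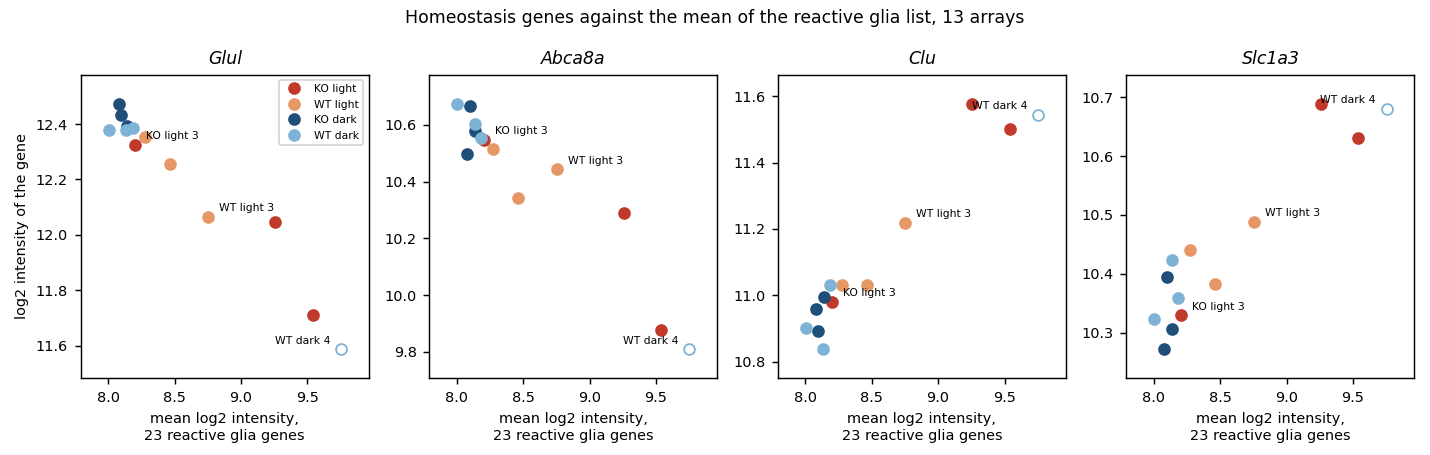
Log2 intensity of Glul, Abca8a, Clu and Slc1a3 (vertical axes) against the mean log2 intensity of 23 reactive glia genes (horizontal axis), 1 point per array, coloured by labelled group. KO light 1 and 2 and WT dark 4, with means of 9.26 to 9.75, lie at the low end for Glul and Abca8a and at the high end for Clu and Slc1a3, and KO light 3, at 8.20, lies near the dark arrays.

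The means of the markers of rods, astrocytes and microglia also set KO light 1 and 2 and WT dark 4 apart. The 15 rod genes averaged 11.78, 11.94 and 12.05 in KO light, against 12.14, 12.08 and 12.08 in WT light, and 11.71 in WT dark 4 against 12.06 to 12.14 in the other dark arrays. Of them 11 fell, with the exchanged arrays, in KO light against WT light, led by Nrl (-0.68) and Cngb1 (-0.44), against 3.66% of all genes, and 8 fell in KO light against KO dark, against 6.3% of all genes, and no rod gene rose. The 7 astrocyte genes averaged 8.50, 8.60 and 7.87 in KO light, against 7.98, 8.04 and 8.13 in WT light, and 8.52 in WT dark 4. Gfap, which is also on the reactive list, Gja1 and Aldh1l1 rose in KO light against WT light, against 4.56% of all genes. Pax2, Pdgfra and Aldoc had the lower mean in KO light without a call, and the median difference of the 7 genes was 0.010. Gja1 had 8.45 and 9.48 in KO light 1 and 2 and 8.79 in WT dark 4, against 7.50 to 7.91 in WT light and 8.59 to 8.82 in KO dark, and it was not called against KO dark. The 12 microglia genes averaged 6.87, 6.89 and 6.70 in KO light, against 6.73, 6.67 and 6.77 in WT light, and 6.94 in WT dark 4. Of them Cd68 (0.86) and C1qb (0.57) rose in KO light against WT light, against 4.56% of all genes, and none fell. The mean was higher in KO light for 9 of the 12 and lower for 3, with a median difference of 0.10. In KO light against KO dark 4 rose, against 7.01% of all genes, and P2ry12 fell, against 6.3%. The fall of P2ry12 was lost without KO light 3 and WT dark 4. The part of these cells in the values of the 10 genes, several of which astrocytes also transcribe, was not tested.

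The 10 pigment cell genes did not divide the arrays in this way. Their mean was 7.11, 7.98 and 7.54 in KO light, against 7.16, 6.58 and 6.99 in WT light, and it was 7.57 in WT dark 4 and 7.14 to 7.71 in the other dark arrays. Of these 3 rose in KO light against WT light, Dct (1.91), Tyrp1 and Pmel, against 4.56% of all genes. Without KO light 3 and WT dark 4 only Tyrp1 did. Dct had 7.81 and 10.55 in KO light 1 and 2 and 8.68 in WT dark 4, against 6.63 to 7.46 in WT light. None was called in KO light against KO dark. The list means of bipolar cells, amacrine cells, ganglion cells and blood vessels did not set KO light 1 and 2 and WT dark 4 apart from all other arrays either. The part of pigment cells and of these other cells in the values of the 10 genes was not tested.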

How the data were processed

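Retinal RNA of 13 mice was measured on 13 arrays, 1 mouse per array. The labels name Trizol for RNA extraction, and the methods name another kit. The authors deposited 1 intensity per probe set on a linear scale, already brought to a common level between arrays (median intensities of 141.1 to 145.6). Partek is named for the authors' processing. How probe sets were summarized, normalized and filtered, and on which genome build, was not given in the sources used here. Intensities were taken to log2. Of 34760 probe sets, the 21640 that carry 1 gene symbol gave 19937 genes, each the mean log2 value of its probe sets, without a filter on dim values. Gene IDs and promoter windows came from RefSeq tables of GRCm38.p6.

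A linear model with the 4 groups and no covariate was fitted with limma 3.58.1 (R 4.3.3) to 12 arrays, with Benjamini-Hochberg adjustment over all genes of a comparison. WT dark 4 was left out of it, since the study states 3 arrays per group. The thresholds are those of the study's methods. The fit was tested on simulated data before use. Replicate numbers did not pair the arrays. The correlation of deviations from group means between arrays of the same number was -0.19 to 0.22. Precision is limited by 3 arrays per group, and signal over background was not available per probe set in the values used.

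The 10 genes, the lists by function and the exchange of arrays were chosen with earlier results of these data known. The genes named are the 10 in every comparison, up to 4 called members of each list with the largest log2 difference, the defining genes Rlbp1, Vim, Gfap and Ppargc1a, relatives of the 10 genes, and for each of the 10 the 3 genes of highest correlation. Members of a list that were named beyond these were chosen after their values were seen. A further gene that the rule names is not reported here. Alternatives to each choice were fitted, and their effect is given with the limits.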

Additional observations from a re-analysis of the deposited data

Results flagged for a closer look

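In the 4 arrays labelled WT dark, 3 of the 10 genes had an array far from the others, judged by its gap to the nearest array as a share of the whole range of the group and passing Dixon's critical value for a group of that size. The share was 0.99 for Glul, where WT dark 4 was the lowest at 11.59 against 12.38 in each of the others, and 0.859 for Abca8a, where WT dark 4 was the lowest at 9.81 against 10.55 to 10.67. It was 0.846 for Car14, where WT dark 3 was the lowest at 9.29 against 9.63 to 9.69. Chance alone passes the critical value in about 1 in 20 groups. The 10 genes share the same 4 arrays, and the share of all genes that pass was not counted. The count of 3 is therefore not read as a trait of the 10 genes. WT dark 4 was left out of the values as labelled, and WT dark 3 was kept.

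The light arrays of the 2 genotypes lay on opposite sides of their dark means for Car14. All 3 KO light arrays (9.33, 9.63 and 9.68) lay under the KO dark mean of 9.76, and all 3 WT light arrays (9.65, 9.68 and 9.60) lay above the WT dark mean of 9.56, which WT dark 3 lowers. WT dark 1 and 2, at 9.69 each, lay above all WT light arrays, and WT light minus WT dark was 0.08 (SE 0.11, adjusted p = 0.72), or -0.047 without WT dark 3. The KO response to light minus the WT response was -0.30 on the log2 scale (SE 0.15), and the interaction did not pass the threshold (limma, adjusted p = 0.753).

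The light response of Clu was larger in KO than in WT mice by 0.42 on the log2 scale with the exchanged arrays (limma interaction, adjusted p = 0.0256). As labelled the difference was 0.23 (adjusted p = 0.846).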

How the results depend on the processing

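With the arrays as labelled, none of the 10 genes was called in any of the 5 comparisons under quantile normalization, with only genes at or above the median intensity, with single probe sets, without moderated variances or with WT dark 4 included. The replicate block gave 0 calls in all 5 comparisons too, and Clu differed by 0.26 (adjusted p = 0.458) in KO light against WT light in that fit. Leaving out 1 array gave 0 to 2 calls in KO light against WT light, 0 to 4 in KO light against KO dark and 0 elsewhere, and every such call came without KO light 3. The exchanged arrays gave 5, 4 and 1 calls in KO light against WT light, KO light against KO dark and the interaction.

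Alternatives to the fit with the exchanged arrays were chosen after seeing the data. In that fit, calls in KO light against WT light were 2 without moderated variances and 3 when these groups were fitted alone, and 2 to 5 when 1 array was left out. In KO light against KO dark they were 4 to 5 when 1 array was left out. In the interaction they were 0 without moderated variances, 4 with genes at or above the median intensity (Glul, Slc1a3, Clu and Sox9) and 0 to 4 when 1 array was left out.

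Small differences changed sign. With WT dark 4 included, KO dark minus WT dark was -0.029 for Aqp4, -0.13 for Clu, 0.17 for Abca8a and -0.010 for Sox9, WT light minus WT dark was 0.044 for Glul, -0.0097 for Slc1a3, -0.026 for Kcnj10 and 0.025 for Abca8a, and the interaction was 0.018 for Apoe. Under quantile normalization KO dark minus WT dark was -0.0023 for Aqp4. When 1 array was left out, KO dark minus WT dark ranged from -0.012 to 0.014 for Aqp4, -0.017 to 0.079 for Clu and -0.071 to 0.013 for Abca8a. KO light minus WT light ranged from -0.16 to 0.012 for Car14. KO light minus KO dark ranged from -0.056 to 0.083 for Dkk3, -0.047 to 0.097 for Apoe and -0.00017 to 0.20 for Kcnj10, and from -0.024 to 0.12 for Apoe with the exchanged arrays. WT light minus WT dark ranged from -0.030 to 0.031 for Aqp4 and -0.047 to 0.15 for Car14. The interaction ranged from -0.12 to 0.026 for Apoe, -0.076 to 0.13 for Kcnj10 and -0.32 to 0.013 for Abca8a, and with the exchanged arrays from -0.099 to 0.044 for Apoe. None of these was called.

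Counts for the lists rested on the same 2 arrays. In KO light against WT light they were 0 as labelled for each list, and with the exchanged arrays, or without KO light 3, they were 10 or 7 for other Müller glia genes, 2 or 2 for glutamate, 3 or 2 for potassium, water and acid-base, 3 or 3 for lipids, 21 or 19 for reactive glia and 11 or 8 for rods. In KO light against KO dark they were 6 or 5, 5 or 5, 4 or 3, 4 or 2, 21 or 21 and 8 or 7 in the same order. In the interaction they were 3 or 1, 1 or 1, 3 or 0, 2 or 0, 16 or 11 and 4 or 0. The lists hold 21, 13, 17, 11, 23 and 15 measured genes in that order. Of all genes, 8.23% or 5.24% were called in KO light against WT light, and 13.3% or 9.94% in KO light against KO dark. In the interaction 399 of all 19937 genes were called higher and 156 lower, or 205 and 58 without KO light 3. In WT light against WT dark the list counts were 4 or 4 for other Müller glia genes, 1 or 1 for potassium, water and acid-base and 7 or 8 for reactive glia. In KO dark against WT dark the count was 1 or 1 for glutamate. For astrocytes, microglia, pigment cells and relatives of the 10 genes they were 3 or 3, 2 or 2, 3 or 1 and 0 or 0 in KO light against WT light and 2 or 2, 5 or 3, 0 or 0 and 1 or 0 in KO light against KO dark. The cause was not tested. Dim genes such as Kcnj16, Car12 and P2ry12 cannot be told from background in the values used here.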

Other observations

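Among the relatives of the 10 genes, Slc1a2, Kcnj16, Car12, Sox8, Abca8b, Abca9 and Aqp1 were not called in any comparison, either as labelled or with the exchanged arrays. Aqp1, a water channel gene of photoreceptors and amacrine cells in the mouse, had log2 intensities of 9.00, 9.82 and 9.52 in KO light, against 9.77, 9.82 and 9.82 in WT light. It had 9.86, 9.77 and 9.57 in KO dark, against 9.61, 9.60 and 9.60 in WT dark 1 to 3 and 8.81 in WT dark 4, so that KO light 2 did not join KO light 1 and WT dark 4. Abca6 had 6.33, 6.97 and 7.01 in KO light, against 6.98, 6.87 and 6.97 in WT light, and 7.01, 6.97 and 6.91 in KO dark, against 7.25, 7.07 and 7.25 in WT dark 1 to 3 and 6.37 in WT dark 4. KO light 2 lay near the WT light arrays for Abca6 too.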
